A study of Mus musculus with 6 samples.

Results

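The circadian clock genes Nr1d1, Nr1d2, Arntl, Clock, Npas2, Per1, Per2, Per3, Cry1 and Dbp were examined in large-intestinal epithelium from germ-free mice with and without epithelial Hdac3. The 10 genes were chosen by name, as the core transcription factors of the clock, the REV-ERB receptors and a clock output gene. Of these, 9 had a probe set that names that gene alone, among 19533 genes measured in all, and each of the 9 had 1 such probe set. Npas2, which encodes a partner of the Arntl product BMAL1 that can take the place of CLOCK, had no such probe set among those used here and was not analysed.

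The HDAC3ΔIEC group held 3 germ-free C57BL/6 mice with an Hdac3 knockout intrinsic to the intestinal epithelium. The HDAC3FF group held 3 germ-free C57BL/6 control mice, which carry the floxed Hdac3 alleles. Live epithelial cells carrying the surface protein EpCAM had been isolated, and total RNA of each biological replicate had been hybridised to 1 Affymetrix array. The promoter that drives the deletion, the sex and age of the animals and the hour at which tissue was taken were not given in the sources used here. What part the hour plays in any value was not tested.

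The mammalian clock is a feedback loop of transcription. BMAL1 and CLOCK (or NPAS2) bind E-boxes and activate the Per, Cry, Nr1d and Dbp genes, and the PER and CRY proteins then inhibit BMAL1 and CLOCK. In a coupled loop the REV-ERB receptors encoded by Nr1d1 and Nr1d2 repress Arntl and other genes by recruiting the NCoR corepressor together with the histone deacetylase HDAC3. Levels of most of these transcripts, though little those of Clock, rise and fall over the day in the intestine as in other organs.

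The loops are known to act through short motifs, and matches in the RefSeq promoter windows (250 bases before to 50 after an annotated start, build GRCm38.p6) are shown so that the members' sequences can be read beside their values. Windows were held for 9 of the 10 genes, 13 windows in all. The gene without a window was Per2, whose promoter was therefore not searched, while Npas2 had 1 window. Searched on both strands were the E-box CACGTG, its variant CACGTT, which reads AACGTG on the opposite strand, the core AGGTCA shared by REV-ERB and ROR receptors, and the D-box TTATGNAA, to which DBP binds. The lines below run 5′ to 3′ on the gene's strand, with the motif in capitals.
Cry1, E-box, chr10:85185097-85185126, minus strand: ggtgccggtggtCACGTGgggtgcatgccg
Per1, E-box, chr11:69098771-69098800, plus strand: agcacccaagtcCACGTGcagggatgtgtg
Cry1, E-box variant, chr10:85185116-85185145, minus strand: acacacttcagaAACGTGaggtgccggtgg
Nr1d1, E-box variant, chr11:98775388-98775417, minus strand: cgcacagatctcAACGTGccggctgctgga
Arntl, REV-ERB core, chr7:113207530-113207559, plus strand: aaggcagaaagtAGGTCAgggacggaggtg
Clock, REV-ERB core read on the opposite strand, chr5:76303604-76303633, minus strand: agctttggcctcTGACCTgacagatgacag
Per1, REV-ERB core read on the opposite strand, chr11:69098800-69098829, plus strand: gtgacacagcccTGACCTcagtgggggcca
Nr1d2, REV-ERB core, chr14:18239166-18239195, minus strand: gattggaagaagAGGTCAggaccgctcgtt
Per1, D-box, chr11:69098914-69098943, plus strand: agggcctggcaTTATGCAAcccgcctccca
Per3, D-box, chr4:151044852-151044881, minus strand: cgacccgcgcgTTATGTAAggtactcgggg
Per3, D-box, chr4:151044805-151044834, minus strand: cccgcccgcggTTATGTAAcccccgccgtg

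The E-box was in windows of 2 members, Per1 and Cry1, and its variant in those of 2, Cry1 and Nr1d1. The REV-ERB core was in windows of 4 members, Arntl, Clock, Per1 and Nr1d2, and the D-box in those of 2, Per1 and Per3. Among all 27025 genes with a window, 8.09% held the E-box in at least 1 window, 5.44% its variant, 18.1% the REV-ERB core and 3.99% the D-box. Of all 32851 windows these shares were 7.15%, 4.68%, 16.3% and 3.38%. Clock had 3 windows and Arntl and Per1 had 2 each, so more windows were searched for them than for the other members, with 1 each. Npas2 and Dbp held no match to any of the 4 motifs. The Arntl match begins at base 32 of the transcribed part, counted from its annotated start. No match to one motif overlapped a match to another in the members' windows. A match describes these letters only.

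The targeted gene Hdac3 had log2 signals of 6.58, 6.22 and 6.00 in HDAC3ΔIEC, all under the 6.96, 7.36 and 7.04 of HDAC3FF (-0.86 ± 0.17, SE, limma adjusted p = 0.0937). Where its probes lie relative to the deleted part is not known here, and a probe outside that part would not read the deletion.

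None of the 9 measured clock genes was called as different between the genotypes by limma, at an adjusted p under 0.05 over all 19533 genes. Over all genes 0.701% were called, and the adjusted p of the 9 ran from 0.310 for Per3 to 0.970 for Arntl. At an unadjusted p under 0.05 stood 1 of the 9, Per3, against 11.2% of all genes. Differences ran from -0.42 for Cry1 to 0.23 for Nr1d1 on the log2 scale, 4 positive and 5 negative, with a median of -0.05 against 0.01 for all genes. The 95% confidence interval lay within 2-fold in either direction for 7 of the 9 and reached past it for Cry1 and Nr1d1. Since the cells were measured in bulk, fewer cells that carry a transcript and less of it per cell cannot be told apart.

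**Figure D1:**
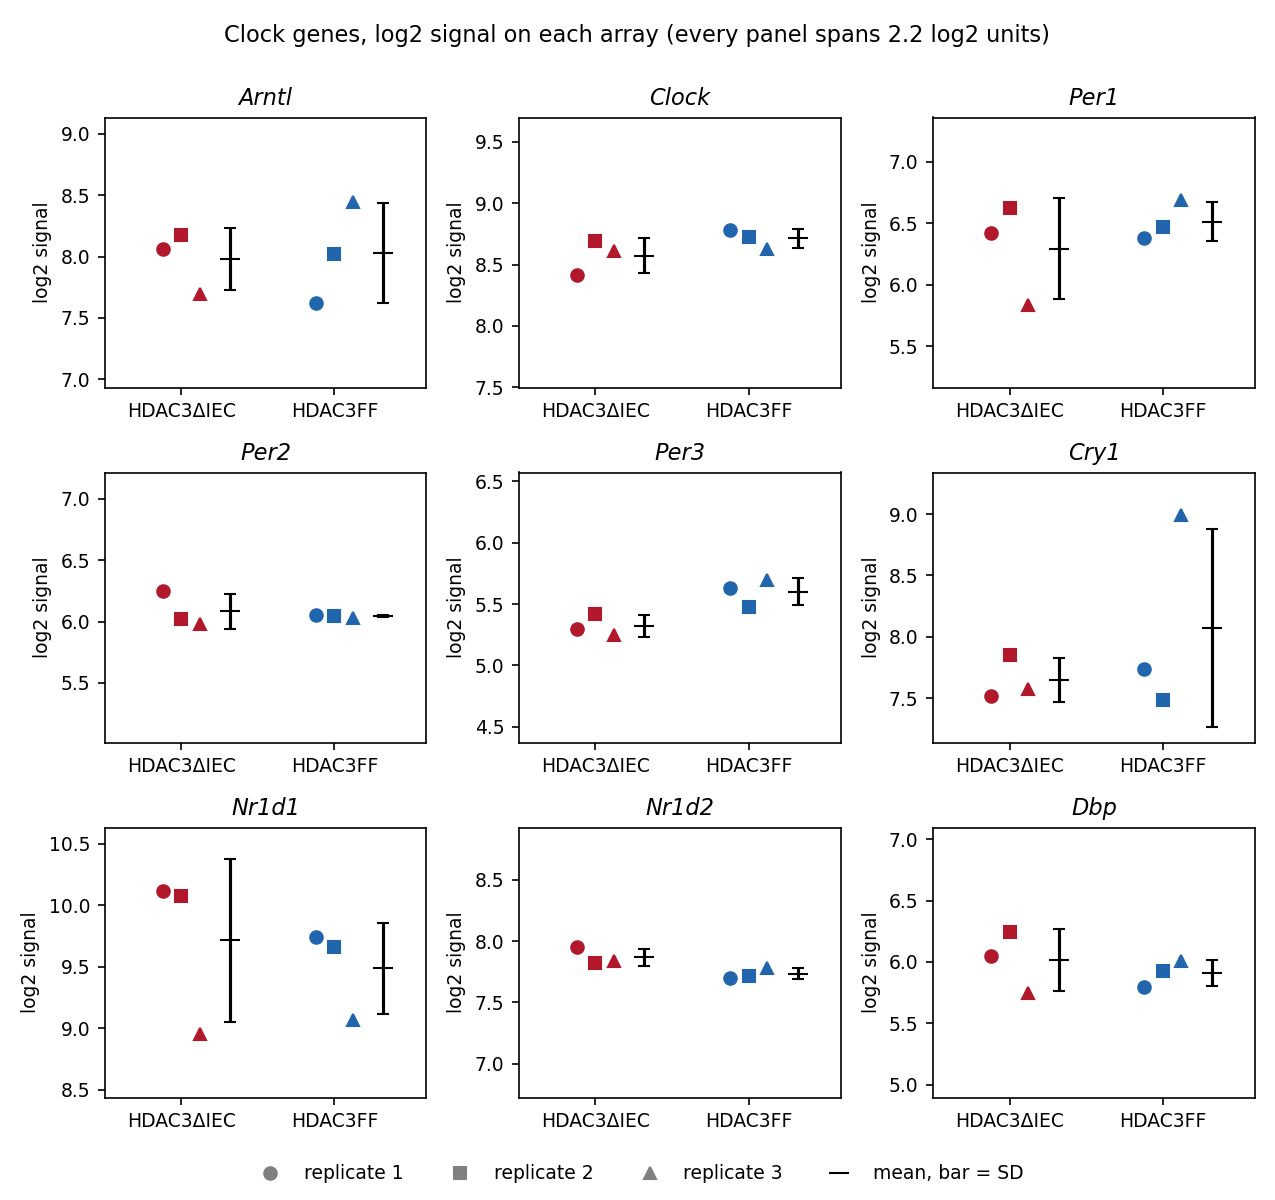
Log2 signal of each measured clock gene (y axis, log2 units, each panel spanning the same range of 2.2) on the 3 HDAC3ΔIEC arrays (red, left) and the 3 HDAC3FF arrays (blue, right), with marker shape giving the replicate and a black bar the mean ± SD. The groups overlap in all panels except Per3 and Nr1d2, and replicate 3 sits apart for Nr1d1 in both genotypes and for Cry1 in HDAC3FF.

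The REV-ERB receptors are the members whose proteins act through HDAC3. Nr1d1, which encodes REV-ERBα (chromosome 11, 98767932 to 98775377), had log2 signals of 10.12, 10.08 and 8.95 on the HDAC3ΔIEC arrays, against 9.74, 9.66 and 9.06 on the HDAC3FF arrays. In each genotype the third replicate was the lowest, and the HDAC3ΔIEC values spanned the whole control range. The means were 9.72 ± 0.66 in HDAC3ΔIEC and 9.49 ± 0.37 in HDAC3FF (SD, n = 3 each), which gave a difference of 0.23 ± 0.33 (SE), with a 95% interval from -0.56 to 1.01 (limma adjusted p = 0.894). That interval runs from 0.680-fold to 2.01-fold.

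The Nr1d1 difference depended on single arrays. It was 0.61 without HDAC3ΔIEC replicate 3, 0.35 without HDAC3FF replicate 1, 0.31 without HDAC3FF replicate 2, 0.026 without HDAC3ΔIEC replicate 1, 0.046 without HDAC3ΔIEC replicate 2 and 0.015 without HDAC3FF replicate 3, with limma adjusted p between 0.375 and 0.996 over the 6 omissions. With replicate 3 of both genotypes left out, a choice made after the values were seen, it was 0.40 ± 0.10 (SE, limma adjusted p = 0.0851), against adjusted p of up to 0.996 over the 14 alternatives. The span of Nr1d1 in the RefSeq table shares 1075 bases with that of Thra, the thyroid hormone receptor alpha gene, and which strand or bases the probes read was not tested. Thra had signals of 8.33, 8.48 and 7.97 on the HDAC3ΔIEC arrays and 7.78, 8.11 and 7.71 on the HDAC3FF arrays (0.39 ± 0.16, SE, limma adjusted p = 0.434).

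Nr1d2, which encodes REV-ERBβ (chromosome 14, 18204056 to 18239106), gave signals of 7.95, 7.82 and 7.84 in HDAC3ΔIEC and of 7.70, 7.71 and 7.78 in HDAC3FF. All 3 HDAC3ΔIEC values lay above all 3 control values, as they did for 8.45% of all genes. The difference was small, 0.14 ± 0.08 (SE; 95% interval -0.05 to 0.33, limma adjusted p = 0.627). It ranged from 0.10 to 0.18 over 14 alternative settings, of which only array weights, quantile normalization and omission of arrays can change it.

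Among the activators, Arntl encodes BMAL1, the partner of CLOCK and a gene that REV-ERB proteins repress. Its signals (chromosome 7, 113178471 to 113314126) were 8.06, 8.18 and 7.69 on the HDAC3ΔIEC arrays, against 7.62, 8.02 and 8.44 on the HDAC3FF arrays. The HDAC3ΔIEC values all fell inside the control range. The means of 7.98 ± 0.25 in HDAC3ΔIEC and 8.03 ± 0.41 in HDAC3FF (SD, n = 3 each) differed by -0.05 ± 0.22 (SE), with a 95% interval from -0.57 to 0.46 (limma adjusted p = 0.970), that is from 0.675-fold to 1.38-fold. Without HDAC3ΔIEC replicate 3 the difference was 0.089, without HDAC3FF replicate 3 it was 0.15, and without both it was 0.29 ± 0.15 (SE, limma adjusted p = 0.381, in a range of 0.381 to 0.978 over the 14 alternatives).

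Clock encodes the other partner of the activating pair. Its signals (chromosome 5, 76209868 to 76305603) were 8.41, 8.69 and 8.61 in HDAC3ΔIEC and 8.78, 8.73 and 8.63 in HDAC3FF. The groups overlapped, and the difference was -0.14 ± 0.10 (SE; 95% interval -0.38 to 0.10, limma adjusted p = 0.713). The noncoding RNA gene Gm7467, whose span shares 652 bases with that of Clock, differed by -0.0043 ± 0.08 (SE, limma adjusted p = 0.994).

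Of the repressors, Per3 had the clearest separation. PER3 is a member of the PERIOD family that is less needed for rhythm in mice than PER1 and PER2. Its signals (chromosome 4, 150997018 to 151044707) were 5.30, 5.42 and 5.25 on the HDAC3ΔIEC arrays, against 5.63, 5.48 and 5.70 on the HDAC3FF arrays. Every HDAC3ΔIEC value lay under every control value, as for 7.7% of all genes. The difference of -0.28 ± 0.10 (SE), or 0.824-fold with a 95% interval from 0.706 to 0.962, missed the threshold (limma adjusted p = 0.310). It stayed between -0.34 and -0.19 over the 14 alternatives, with adjusted p from 0.259 to 0.581. Of these, only array weights, quantile normalization and omission of arrays can change the difference itself. Uts2, the urotensin 2 gene, whose span shares 4714 bases with that of Per3, differed by 0.05 ± 0.08 (SE, limma adjusted p = 0.905).

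Per1 and Per2 encode the main PERIOD proteins, which enter the nucleus with CRY and inhibit BMAL1 and CLOCK. Per1 (chromosome 11, 69095108 to 69109965) had signals of 6.42, 6.63 and 5.83 in HDAC3ΔIEC and of 6.38, 6.47 and 6.69 in HDAC3FF. Apart from HDAC3ΔIEC replicate 3, the 5 other arrays lay between 6.38 and 6.69. The difference was -0.22 ± 0.20 (SE, limma adjusted p = 0.800) with all arrays and 0.011 without that one. Per2 (chromosome 1, 91415977 to 91459351) had signals of 6.25, 6.02 and 5.98 in HDAC3ΔIEC, against 6.05, 6.05 and 6.03 in HDAC3FF. Its HDAC3FF values were nearly equal, and the difference was 0.04 ± 0.10 (SE; 95% interval -0.18 to 0.26, limma adjusted p = 0.943).

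Cry1 encodes the cryptochrome that holds BMAL1 and CLOCK inactive late in the cycle. On the HDAC3ΔIEC arrays it had signals of 7.52, 7.85 and 7.57 (chromosome 10, 85131700 to 85185054), against 7.74, 7.48 and 8.99 on the HDAC3FF arrays. A single array, HDAC3FF replicate 3, stood above the other 5, which ran from 7.48 to 7.85. The fold change of -0.42 ± 0.36 (SE; 95% interval -1.27 to 0.43, limma adjusted p = 0.775) was 0.036 without that array.

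Dbp encodes a transcription factor that carries clock timing to output genes through D-boxes. Its signals (chromosome 7, 45705100 to 45710203) were 6.05, 6.25 and 5.74 in HDAC3ΔIEC, against 5.80, 5.92 and 6.00 in HDAC3FF. The groups overlapped, at a difference of 0.10 ± 0.14 (SE; 95% interval -0.22 to 0.43, limma adjusted p = 0.880). The RefSeq spans of Dbp and Sphk2, a sphingosine kinase gene, share 741 bases, and Sphk2 differed by 0.34 ± 0.15 (SE, limma adjusted p = 0.485).

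**Figure D2:**
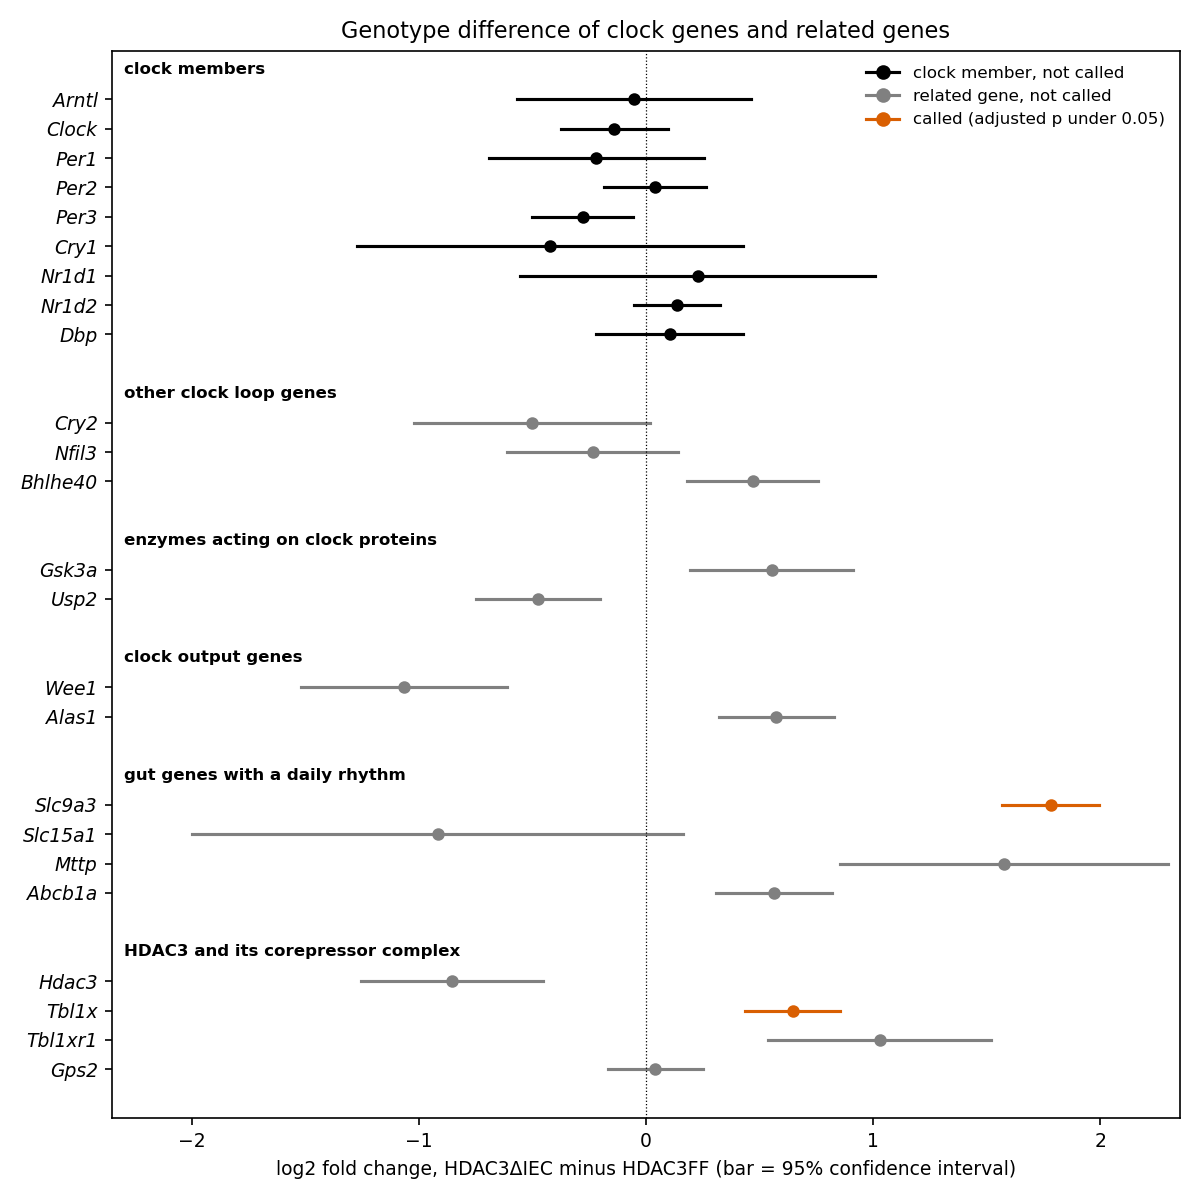
Log2 fold change, HDAC3ΔIEC minus HDAC3FF (x axis, log2 units), with 95% confidence intervals for the 9 measured clock genes (black) and named genes of 5 related lists (grey, or orange where called at an adjusted p under 0.05). No clock gene is called, the clock gene intervals other than that of Per3 include 0, and the called genes are Slc9a3 and Tbl1x.

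For 7 of the 9 clock genes the difference between the genotype means was smaller than the range within at least 1 genotype. It exceeded the range within either genotype for 2, Per3 and Nr1d2, and for 9.2% of all genes. Cry1 and Nr1d1 had SDs among arrays of the same genotype, pooled over both genotypes, of 0.58 and 0.54 on the log2 scale, above those of 99.2% and 98.9% of all genes. Arntl at 0.34 and Per1 at 0.31 lay above the 90th percentile too, so that 4 of 9 members did, while the median over all genes was 0.14. Dbp stood at 0.19. The SDs of Clock, Per2 and Per3 were 0.12, 0.10 and 0.10, and Nr1d2, at 0.06, was at the 7.74th percentile. Among genes above the median signal, the percentiles of Cry1 and Nr1d1 were 98.5 and 98.02, and those of Arntl and Per1 were 88.4 and 84.6. Members therefore ranged from some of the most to some of the least variable transcripts among these arrays, and the 2 REV-ERB genes stood at opposite ends.

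**Figure D3:**
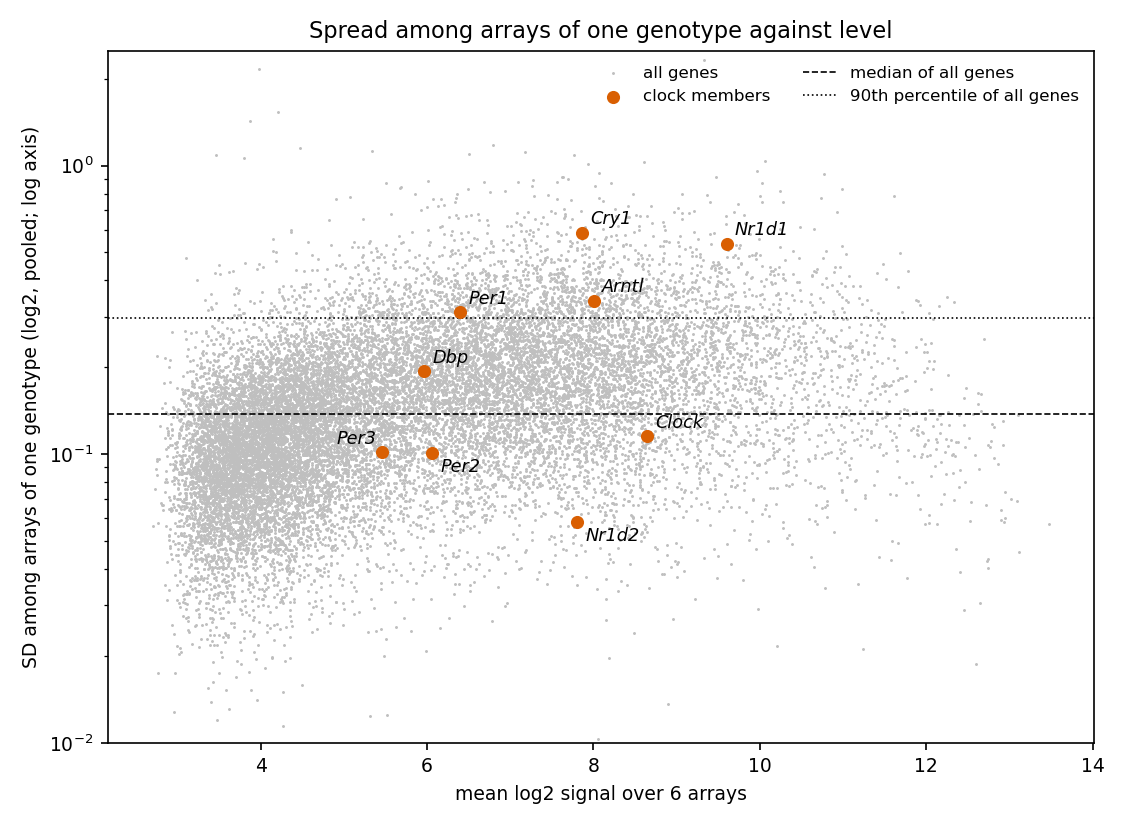
SD among arrays of the same genotype (y axis, log2 units on a log axis, pooled over both genotypes) against mean log2 signal over the 6 arrays (x axis) for all genes (grey) and the clock genes (orange). Cry1, Nr1d1, Arntl and Per1 lie above the 90th percentile of all genes (dotted), and Nr1d2, Per2, Per3 and Clock lie below the median (dashed).

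HDAC3ΔIEC replicate 3 was the lowest of the 6 arrays for 5 of the 9 members, Per1, Per2, Per3, Nr1d1 and Dbp, and was the lowest for 15.3% of all genes. HDAC3FF replicate 3 was the highest for 4 members, Arntl, Per1, Per3 and Cry1, and for 20.2% of all genes. Counting both directions, HDAC3ΔIEC replicate 3 was the highest or lowest array for 5 members and 37.1% of all genes, HDAC3FF replicate 3 for 4 members and 40.8%, and HDAC3ΔIEC replicate 1 for 4 members and 24.99%. Relative to its own genotype's mean, HDAC3ΔIEC replicate 3 read -0.77 for Nr1d1, -0.46 for Per1, -0.28 for Arntl and -0.27 for Dbp. HDAC3FF replicate 3 read 0.92 higher for Cry1, 0.41 for Arntl and 0.18 for Per1, but -0.42 for Nr1d1. The 2 arrays therefore had low Nr1d1 in common, and slightly low Per2, and deviated in opposite directions for the other measured members. Over all genes the deviations of these 2 arrays had r = -0.20, so a weak opposite tendency was not particular to the clock genes. These arrays had the lowest weights of the 6 in limma, 0.654 and 0.475, against 1.01 to 1.63 for the others. Such a weight is estimated from how far an array lies from its genotype means over the genes, so it is not separate information. The part of array quality in these deviations was not tested.

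**Figure D4:**
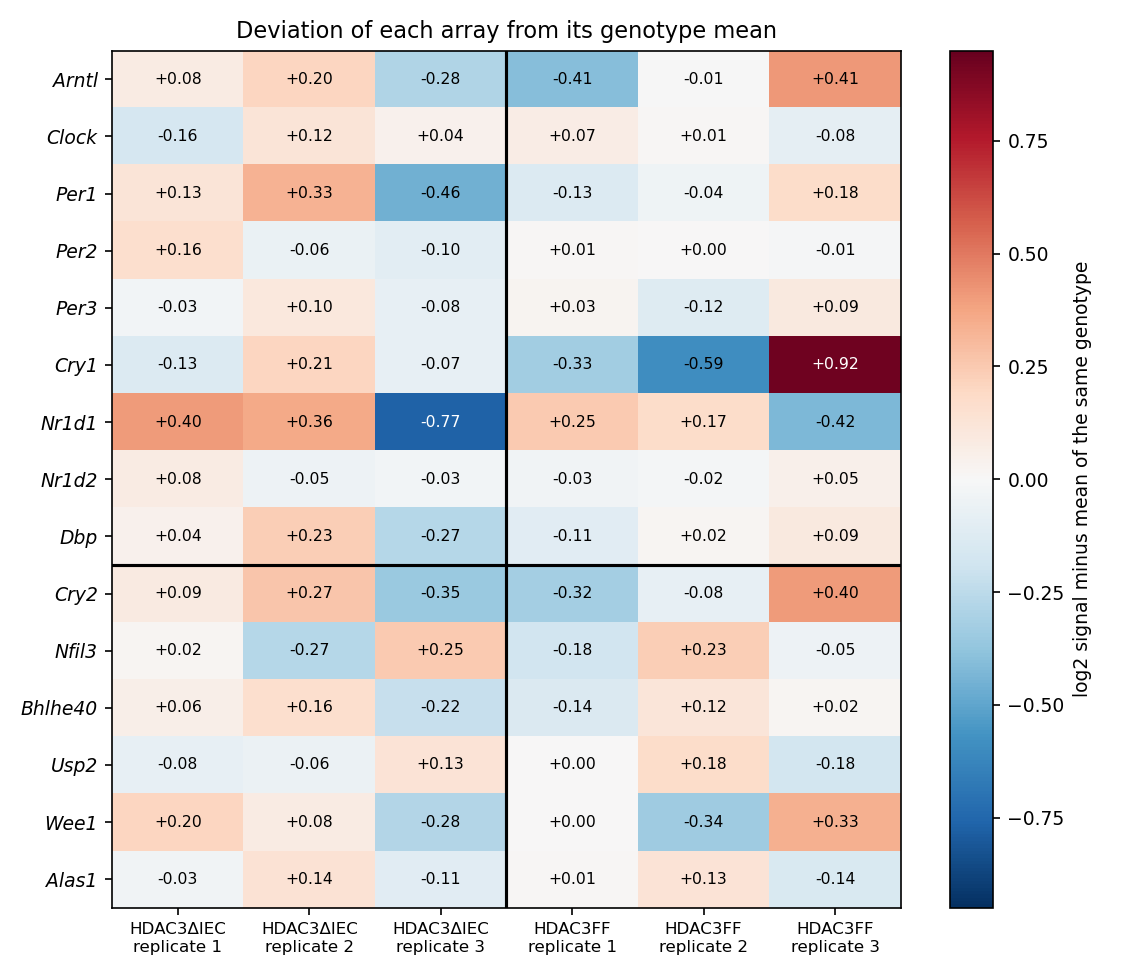
Deviation of each array from the mean of its genotype (cell numbers and colour, log2 units) for the 9 clock genes (above the line) and 6 related genes (below it), with HDAC3ΔIEC arrays on the left and HDAC3FF arrays on the right. HDAC3ΔIEC replicate 3 is low for Nr1d1 (-0.77) and Per1 (-0.46), and HDAC3FF replicate 3 is high for Cry1 (0.92) and Arntl (0.41).

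Beyond the members, 12 of 13 listed genes of the clock loops were measured, and none was called, with a median log2 fold change of -0.04. An unadjusted p under 0.05 was found for 1 of the 12, against 11.2% of all genes. This list and the related lists below were chosen with earlier results of these data known. Bhlhe40, which encodes the E-box repressor DEC1, had signals of 9.11, 9.21 and 8.83 in HDAC3ΔIEC and of 8.44, 8.70 and 8.60 in HDAC3FF, without overlap (0.47 ± 0.12, SE, limma adjusted p = 0.178). Cry2, the second cryptochrome gene, had 6.01, 6.18 and 5.56 in HDAC3ΔIEC and 6.10, 6.34 and 6.82 in HDAC3FF (-0.50 ± 0.22, SE, limma adjusted p = 0.464). Like Cry1 and Arntl, it was highest on HDAC3FF replicate 3. Nfil3, a repressor acting at D-boxes that REV-ERBα represses in intestinal epithelium, was named after its values were seen. It read 6.91, 6.62 and 7.14 in HDAC3ΔIEC and 6.94, 7.36 and 7.08 in HDAC3FF, with overlapping groups (-0.23 ± 0.16, SE, limma adjusted p = 0.694).

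Enzymes acting on clock proteins gave no call among 9 measured of 10 listed, with a median of 0.03. At an unadjusted p under 0.05 stood 4 of the 9, against 11.2% of all genes. Usp2, a deubiquitinase with a strong daily rhythm, had signals of 6.13, 6.15 and 6.34 in HDAC3ΔIEC, all under the 6.68, 6.86 and 6.504 of HDAC3FF (-0.48 ± 0.12, SE, limma adjusted p = 0.149). It passed in 2 of 14 alternatives, with array weights and without replicate 3 of both genotypes, and its limma adjusted p ran from 0.0323 to 0.445. Gsk3a, a glycogen synthase kinase gene, had 9.02, 9.39 and 9.08 in HDAC3ΔIEC, all above the 8.40, 8.56 and 8.88 of HDAC3FF (0.55 ± 0.15, SE, limma adjusted p = 0.201).

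Clock output genes gave no call either among 8 measured of 9 listed, with a median of 0.04. At an unadjusted p under 0.05 stood 4 of the 8, against 11.2% of all genes. Wee1, which encodes a kinase that holds cells before mitosis and is driven through E-boxes in mouse liver, had signals of 5.92, 5.79 and 5.44 on the HDAC3ΔIEC arrays, against 6.79, 6.45 and 7.12 on the HDAC3FF arrays. The groups were well apart, at 0.478-fold (95% interval 0.349 to 0.654), or -1.07 ± 0.19 on the log2 scale (SE, limma adjusted p = 0.0735). Over the 14 alternatives its adjusted p ran from 0.0392 to 0.247 and its fold change from -1.24 to -0.76, and it passed in 4, namely with an intensity trend, array weights, a filter on dim genes and omission of replicate 3 of both genotypes. Alas1, the rate-limiting enzyme of the synthesis of haem, the ligand of REV-ERB proteins, had 9.60, 9.77 and 9.52 in HDAC3ΔIEC, all above the 9.07, 9.18 and 8.91 of HDAC3FF. Its difference of 0.57 ± 0.11 (SE, limma adjusted p = 0.0793) passed in 1 of 14 alternatives, array weights, with adjusted p from 0.0395 to 0.296.

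Of 9 measured gut genes with a known daily rhythm, 1 rose, none fell and 8 did not pass, at a median of 0.17. Over all genes 0.701% were called. An unadjusted p under 0.05 was found for 5 of the 9, the gene that rose included, against 11.2% of all genes. The gene that rose was Slc9a3, the sodium-proton exchanger NHE3, with signals of 11.25, 11.39 and 11.26 in HDAC3ΔIEC and of 9.41, 9.56 and 9.60 in HDAC3FF (1.78 ± 0.09, SE, limma adjusted p = 0.000645). It passed under all 14 alternatives. Abcb1a, a drug efflux pump gene, had 11.63, 11.80 and 11.81 in HDAC3ΔIEC and 11.06, 11.12 and 11.36 in HDAC3FF (0.57 ± 0.11, SE, limma adjusted p = 0.0823), and passed in 3 of 14 alternatives, one being omission of HDAC3FF replicate 3 (adjusted p = 0.0286, in a range of 0.0286 to 0.315). Mttp and Slc15a1 were named after their values were seen. Mttp, a lipid transfer protein of lipoprotein assembly, had 6.98, 6.49 and 5.65 in HDAC3ΔIEC, above 4.999, 4.76 and 4.63 in HDAC3FF (1.58 ± 0.31, SE, limma adjusted p = 0.0877), and passed in 5 of 14 alternatives, one being omission of HDAC3ΔIEC replicate 3 (adjusted p = 0.0354, in a range of 0.00812 to 0.312). Slc15a1, the peptide transporter PEPT1, had 9.42, 9.66 and 7.74 in HDAC3ΔIEC, under 9.68, 10.03 and 9.88 in HDAC3FF (-0.92 ± 0.46, SE, limma adjusted p = 0.537). The lowest Slc15a1 array, HDAC3ΔIEC replicate 3, was also the lowest for Nr1d1, as it was for 15.3% of all genes. Without that array the Slc15a1 difference was -0.32.

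The complex through which REV-ERB proteins act was measured for 4 of 6 listed genes, Hdac3, Tbl1x, Tbl1xr1 and Gps2. No gene for NCoR itself was among the 4. Of the 4, 1 rose, none fell and 3 did not pass, at a median of 0.34, while 0.701% of all genes were called. An unadjusted p under 0.05 was found for 3 of the 4, Hdac3, Tbl1x and Tbl1xr1, against 11.2% of all genes. Hdac3 is the gene targeted by design, so its lower signal is not a separate result. Both the count and the median include it. Tbl1x, a subunit that links the complex to chromatin, had signals of 9.02, 9.06 and 8.92 in HDAC3ΔIEC, above 8.29, 8.47 and 8.30 in HDAC3FF. It rose by 0.65 ± 0.09 (SE, limma adjusted p = 0.0355), a call kept in 7 of 14 alternatives, with adjusted p from 0.0158 to 0.172. The call was lost with the replicate block (adjusted p = 0.120), with an intensity trend (adjusted p = 0.0684) and without any single array other than HDAC3FF replicate 3. Its relative Tbl1xr1 had 8.87, 9.09 and 9.51 in HDAC3ΔIEC and 7.79, 8.43 and 8.15 in HDAC3FF (1.03 ± 0.21, SE, limma adjusted p = 0.0966). It passed in 1 of 14 alternatives, the mean of its probe sets (0.98, adjusted p = 0.0346), in a range of 0.0346 to 0.303. Gps2, another subunit gene, differed by 0.04 ± 0.09 (SE, limma adjusted p = 0.937).

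**Figure D5:**
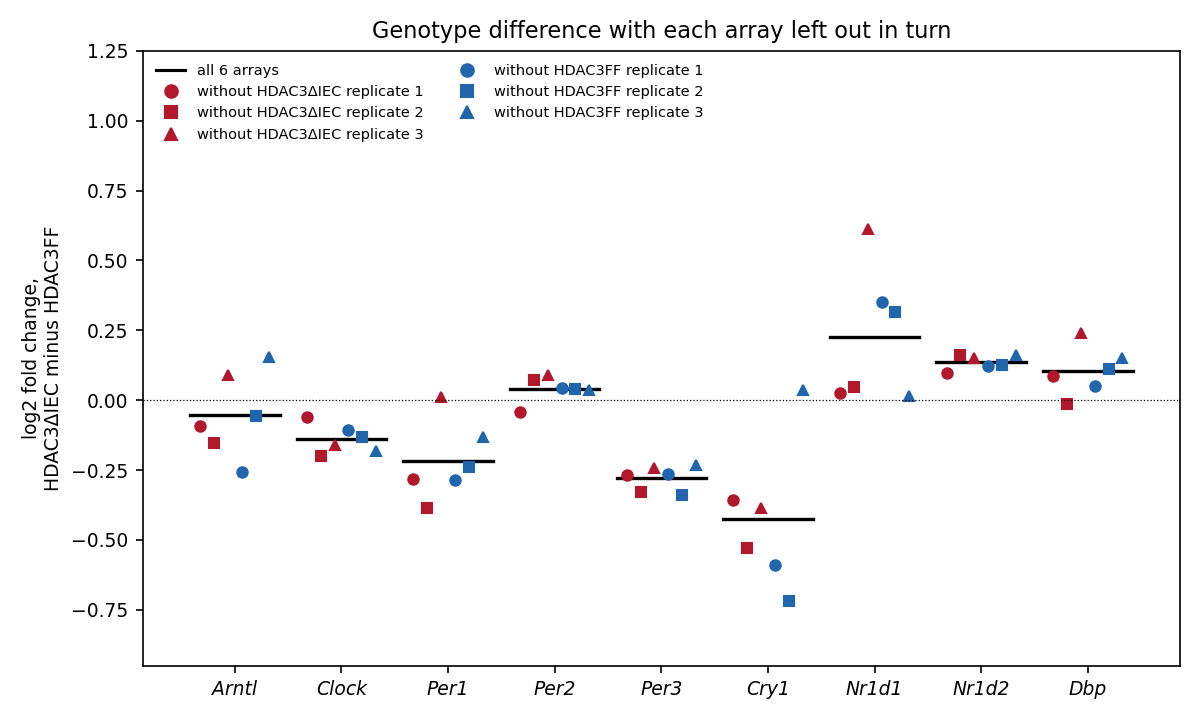
Log2 fold change, HDAC3ΔIEC minus HDAC3FF (y axis, log2 units), of each clock gene (x axis) with all 6 arrays (black line) and with each array left out (red markers for HDAC3ΔIEC arrays, blue for HDAC3FF, shape for the replicate). Nr1d1 moves between 0.02 and 0.61 and Cry1 between -0.72 and 0.04, while Per3 and Nr1d2 keep their sign and stay near their values with all arrays.

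The arrays were those of epithelium by their markers. All 7 epithelial markers were measured, at mean log2 signals of 8.90 to 12.95, and none was called (2 at an unadjusted p under 0.05), with Epcam at -0.06 ± 0.10 (SE) and Vil1 at 0.18 ± 0.13 (SE). For 3 of the 7, all HDAC3ΔIEC values lay above all HDAC3FF values, against 8.45% of all genes. The reverse held for none, against 7.7%. By sign of the difference, 5 of the 7 were positive and 2 negative. None of 21 measured markers of other cells, of 23 listed, was called, with 2 at an unadjusted p under 0.05. Their median log2 fold change was -0.01 and their mean signals were 3.51 to 5.89. Over all genes 11.2% had an unadjusted p under 0.05. The brightest of each kind differed by -0.22 for Cd3e (T cells), 0.51 for Cd68 (myeloid cells), -0.06 for Col1a1 (fibroblasts), 0.01 for Tie1 (endothelium) and 0.32 for Snap25 (listed for neurons and glia). The part of these markers in the values above was not tested, nor was whether the Snap25 signal came from neurons. Array medians lay between 5.30 and 5.35 over the 19533 genes, and the small number of arrays, 3 per genotype, limits how precise each value is.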

How the data were processed

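Epithelial total RNA of 6 germ-free mice was measured on 1 Affymetrix array each. The authors deposited 1 log2 signal for each probe set on each array; the scale is read from the range of values and their near-equal medians. The submitters' processing notes name Affymetrix Power Tools, with version, background correction, normalization and filters not given in the sources used here. Signals below background are not marked.

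Of 24939 probe sets, 21105 name 1 gene in the platform annotation, 1254 name several, and 2580 had no symbol. Entrez numbers matched 21022 of the 21105 to RefSeq GRCm38.p6, which changed 0 symbols. For 882 genes with several probe sets, the brightest by mean over all 6 arrays stood for the gene. Genotypes were compared over 19533 genes by limma 3.58.1 in R 4.3.3 (lmFit and eBayes, two-sided, no covariate, Benjamini-Hochberg over all genes). The fit was tested on simulated data in which a gene had the same spread on every array, which does not cover arrays of unequal weight. An exact permutation test of 3 against 3 arrays cannot go below p = 0.1 and was not used. Promoters were searched with Python 3.11.15.

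The members, the related lists and the tests were chosen with earlier results of these data known. Named genes are the members, called genes and the 2 with the smallest p of each related list, the whole corepressor list, Epcam, Vil1, the brightest marker of each other cell type and the 3 genes most like Nr1d1 and Arntl across arrays. Others named are Nfil3, Mttp, Slc15a1 and the measured genes whose spans overlap a member's. No 2 arrays were alike: at most 0.133% of genes had equal values on any pair. As alternatives, the fit was run with array weights, an intensity trend, a replicate block, quantile normalization, the mean of a gene's probe sets, adjustment over all probe sets, a filter on genes under the median signal, and omission of arrays.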

Additional observations from a re-analysis of the deposited data

How the results depend on the processing

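No clock gene was called under any of the 14 alternatives, whose smallest adjusted p among the members ran from 0.0851 to 0.581. Of 126 member values recomputed, 116 kept their sign and 10 reversed, those of Arntl, Cry1, Per1, Per2 and Dbp. A member's difference cannot change with the replicate block, the intensity trend or the filter on dim genes. Nor can it change with adjustment over all probe sets, or with the mean of probe sets, since each member had 1. Part of the 116 was therefore fixed in advance. All 10 reversals came with array weights or with arrays left out. With array weights Arntl read 0.13. With arrays left out, Arntl ran from -0.26 to 0.29, Cry1 from -0.72 to 0.073, Per1 from -0.39 to 0.099, Per2 from -0.041 to 0.091, Dbp from -0.012 to 0.29 and Gps2 from -0.013 to 0.12, where the cause was not tested. The omission of replicate 3 of both genotypes was chosen after the values were seen.

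The count over all genes, 137 with all arrays, was 357 with array weights and, with arrays left out, ran from 13 (without HDAC3FF replicate 1) to 430 without HDAC3FF replicate 3 and 744 without replicate 3 of both genotypes. With the replicate number as a block it was 12. The numbers are not shown to pair the arrays: the correlations of same-numbered arrays' deviations over genes were -0.02, -0.07 and -0.20. The block left the Nr1d1 difference at 0.23, with an SE of 0.14 in place of 0.33 and a limma adjusted p = 0.708. Calls ran from 0 to 2 among the output genes, 0 to 2 among the enzymes, 1 to 5 among the gut genes and 0 to 2 in the corepressor list over the 14 alternatives. Signal over background was not analysed here.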

Other observations

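Across the 6 arrays, the genes whose signals followed Nr1d1 most closely, among 9766 genes above the median signal, were Snrpb, Cdk6 and Thrap3, with Pearson r of 0.98, 0.98 and 0.97. Since they were chosen by that likeness, these 3 genes shared the low replicate 3 of both genotypes with Nr1d1, which is no separate result. Snrpb read 8.44, 8.53 and 8.06 in HDAC3ΔIEC and 8.39, 8.31 and 8.12 in HDAC3FF. Those most like Arntl were Rab11b, Tmem127 and Cilk1, with r of 0.998, 0.99 and 0.99, and Rab11b read 9.28, 9.40 and 8.75 in HDAC3ΔIEC and 8.69, 9.25 and 9.72 in HDAC3FF. Over 6 arrays r passed 0.95 for 10 of the 9766 genes with Nr1d1 and for 62 with Arntl. Nr1d1 and Arntl themselves had r = 0.035. With Arntl, Per1 had r = 0.76, Dbp 0.72, Cry1 0.69, Per3 0.33, Nr1d2 0.20, Per2 0.13 and Clock -0.26. With Nr1d1, Per2 had 0.62, Dbp 0.61, Per1 0.44, Nr1d2 0.22, Clock -0.13, Per3 -0.15 and Cry1 -0.45. The highest of these members, Per1 with Arntl and Per2 with Nr1d1, ranked only 919 and 856 among the 9766 genes. All these values describe the same 6 arrays.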
